A study of Arabidopsis thaliana with 9 samples.

Results

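The genes described here are the nuclear genes of Arabidopsis that encode parts of the photosynthetic light reactions. They comprise the light-harvesting antenna proteins of photosystem II (LHCB) and photosystem I (LHCA), the nuclear-encoded subunits of both photosystems, plastocyanin, the Rieske protein, ferredoxin, ferredoxin-NADP reductase and nuclear subunits of the chloroplast ATP synthase. They were given by a list of locus names that uses no measured value, and the sense tags of 52 listed loci were taken out of 21063 sense loci with tags. All 52 had tags in every library. Leaves of 4-week-old plants were compared between the wild type ecotype Nossen (No-0) and slh1, a mutant in the No-0 background with a changed RRS1 gene, a member of the intracellular immune receptors with a WRKY domain. Both genotypes were grown at 28 °C in short days of 10 h light and 14 h dark and moved to 21 °C at the beginning of the light period. They were sampled at the move (0 h, 28 °C) and 6, 9 and 24 h after it (21 °C), with 1 library for each genotype and time point, 8 libraries in all and no replicate. The labels do not give the number of plants behind a library.

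The light-harvesting proteins bind chlorophyll and pass absorbed energy to the reaction centres. LHCB1, LHCB2 and LHCB3 form the trimeric main antenna of photosystem II (LHCII), LHCB4, LHCB5 and LHCB6 are its minor monomeric antennae, and LHCA1 to LHCA4 form the antenna of photosystem I. Electrons taken from water at photosystem II pass through the cytochrome b6f complex and plastocyanin to photosystem I, and from there through ferredoxin to NADP. LHCB genes are textbook examples of genes under control of light and of the circadian clock in leaves. The reaction centre proteins themselves are encoded in the chloroplast and are not among the genes described here.

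Each transcript gives 1 tag near its 3′ end in this assay, so that levels are not scaled by transcript length. The level of a gene is given as TPM, its sense tags per 1000000 sense tags of the library. Libraries held between 200614 and 503398 sense tags, and 1 tag was worth between 1.99 and 4.98 TPM. Chloroplast and mitochondrial loci took between 13.5% and 22.7% of the sense tags. A leaf check by marker genes fixed in a list found the mesophyll markers RBCS1A, RCA and CA1 at a summed level between 19440 and 28612 TPM, whereas 3 guard cell markers reached at most 19.9 TPM in sum and 3 epidermis markers between 74.8 and 214.2 TPM. The 3 senescence markers summed to 4.13, 25.5, 8.25 and 273.1 TPM at 0, 6, 9 and 24 h in the No-0 libraries and to 0, 20.3, 9.96 and 238.3 TPM in those of slh1, and the root marker list, through PYK10, to between 43.99 and 94.6 TPM in 5 libraries at 21 °C, 2.43 TPM in slh1 at 24 h and 0 at 0 h. The 3 companion cell markers, SUC2, AHA3 and PP2-A1, summed to 223.3, 44.5, 101.7 and 99.3 TPM in the No-0 libraries and to 174.5, 165, 107 and 48.6 TPM in those of slh1, highest at 0 h in both genotypes. SUC2 alone went the other way in slh1, from 19.9 TPM at 0 h to 68.5 TPM at 6 h. AHA3 was called lower by edgeR between 0 and 24 h, with a log2 fold change of -2.68 ± 0.90 (adjusted p = 0.0213). Single genes of the epidermis and mesophyll lists were also called by edgeR between 0 and 24 h. PDF1 (epidermis) was higher, with a log2 fold change of 4.62 ± 0.70 (adjusted p = 1.25e-08). CA1 (mesophyll) was lower, with -1.13 ± 0.23 (adjusted p = 2.54e-05). The other genes of both lists were not called there. RCA (mesophyll) was called higher between 9 and 24 h, with 0.92 ± 0.24 (adjusted p = 0.00326). Between 0 h and 6 h, edgeR called 1 mesophyll marker lower and 1 marker each of the epidermis, root and senescence lists higher. Of all genes tested, 1.55% were called lower and 2.66% higher there. Between 0 h and 24 h 1 root and 1 senescence marker were called higher, and between 9 and 24 h 1 senescence marker was. The mesophyll sum fell from 27962 to 19440 TPM in No-0 and from 28612 to 21934 TPM in slh1 between 0 h and 6 h. The mesophyll, senescence, root and companion cell lists and these single genes differed between time points. Their part in the results below was not tested.

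The 52 genes took a large part of the leaf transcripts. Their summed share of the sense tags was 14.1, 16.1, 13.0 and 16.7% in No-0 and 14.5, 15.8, 11.2 and 15.2% in slh1 at 0, 6, 9 and 24 h. The 95% Wilson interval of each share was no wider than from 15.0% to 15.3% (slh1 at 24 h), but these intervals cover counting error only and say nothing of the spread between plants. The share was lowest at 9 h in both genotypes, and lowest of all in slh1 at 9 h. A lower share in whole leaves can come from fewer cells of a type or from less of the transcript per cell, and these cannot be told apart here. Between 0 h and the samples at 6 and 9 h, temperature and hour of the day changed together and cannot be told apart, whereas 24 h fell at the beginning of the light period as 0 h did. Of the 52 genes, 40 had a mean of at least 1000 TPM and 37 were among the 100 highest sense loci of the leaf, whereas 5 had a mean under 500 TPM.

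The photosystem II antenna carried most of this movement. Its 14 genes took 4.37, 5.59, 3.51 and 6.98% in No-0 and 4.25, 5.39, 2.72 and 6.01% in slh1 of the sense tags at 0, 6, 9 and 24 h. The 6 photosystem I antenna genes took 1.88, 2.16, 1.57 and 1.76% in No-0 and 2.02, 2.13, 1.36 and 1.47% in slh1. The 12 photosystem I subunit genes took 3.17, 3.34, 2.89 and 3.003% in No-0 and 3.44, 3.23, 2.51 and 2.80% in slh1 and were thus within a narrower range than the LHCB genes. The 11 photosystem II subunit genes were at 3.27, 3.85, 3.77 and 3.75% in No-0 and 3.22, 3.84, 3.40 and 3.97% in slh1. Over the 8 libraries together they moved least in relation to their level, but within No-0 the photosystem I subunit genes moved slightly less. The 9 genes of electron carriers and ATP synthase took the smallest part, 1.39, 1.15, 1.25 and 1.19% in No-0 and 1.55, 1.24, 1.21 and 0.942% in slh1.

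**Figure D1:**
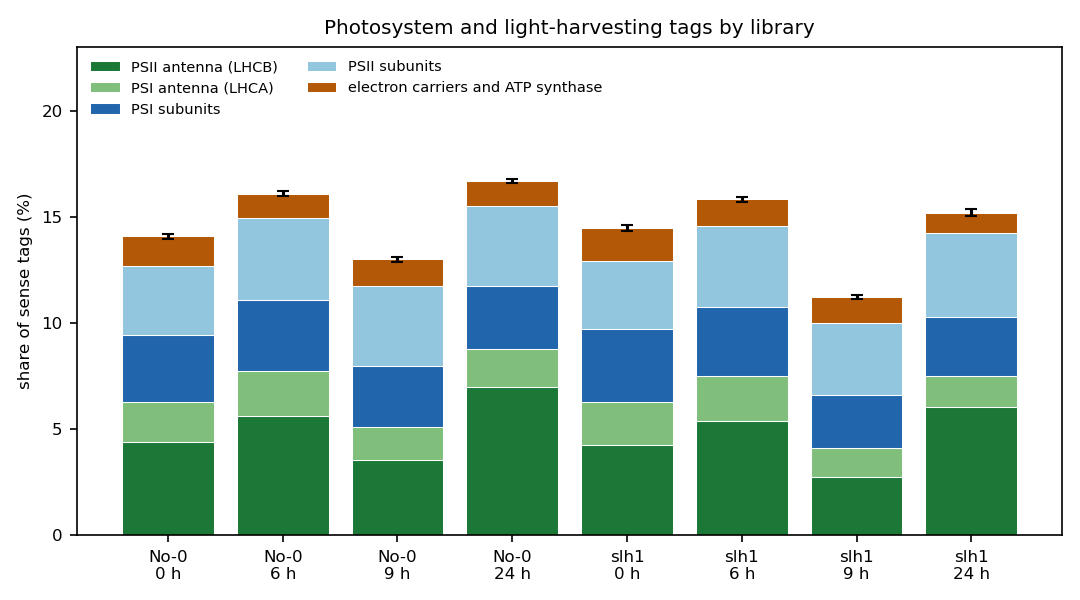
Stacked bars give the share of all sense tags (%, axis from 0) taken by each functional group in the 8 libraries, No-0 at the left and slh1 at the right, with the 95% Wilson interval of the sum as an error bar. The dark green LHCB part falls from 5.59% to 3.51% between 6 and 9 h in No-0 and from 5.39% to 2.72% in slh1, and is highest at 24 h in both.

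Changes with time were tested with edgeR's quasi-likelihood test on counts of sense tags, with the genotype as a block, so that both genotypes at a time point served as repeats of it. Adjusted p-values are Benjamini-Hochberg values over 7824 genes, and a gene is said to be called where its value was under 0.05. Log2 fold changes, here and in the later fits of genotype, are given with a standard error derived from the test. It is the absolute log2 fold change divided by the square root of the F statistic. Whether libraries of a time point came from separate cultures or days is not stated, and p-values measure only the spread between these libraries.

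Between 6 h and 9 h, 13 of the 14 photosystem II antenna genes had a negative log2 fold change, and 8 were called lower. Of the 52 genes, 9 were called lower and none higher, where 0.907% of all genes tested were called in either direction and 0.626% were called lower. The 9 were 8 LHCB genes (LHCB1.1, LHCB1.2, LHCB1.4, LHCB2.1, LHCB2.2, LHCB2.3, LHCB3 and LHCB4.2) and LHCA4. Over all 52 genes, 44 had a negative log2 fold change and the median was -0.25, against 0.02 over all genes tested. The median over the 14 LHCB genes was -1.07. Without the slh1 9 h library, 5 genes were called lower (LHCB1.1, LHCB2.1, LHCB2.2, LHCB2.3 and LHCB3).

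Between 9 h and 24 h most of these genes rose again. Of the 52 genes, 9 were called higher (5.02% of all genes tested were) and 3 lower (5.25% of all genes tested were), 12 in all where 10.3% of all genes tested were called in either direction. The 9 were LHCB1.1, LHCB1.3, LHCB1.4, LHCB2.1, LHCB2.2, LHCB2.3, LHCB3, LHCB4.2 and PSAN, which encodes a photosystem I subunit on the lumen side. The 3 called lower were FNR2, ATPC1 and PSBS. This comparison shares its 9 h libraries with the one before, so that the fall and the rise are not independent of each other. Without the slh1 9 h library 8 genes were called higher and none lower, and without the slh1 24 h library 11 were called higher and none lower.

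The 3 LHCB2 genes, which encode part of the LHCII trimer, fell furthest of the 52 genes between 6 and 9 h. At 0, 6, 9 and 24 h, LHCB2.1 (AT2G05100) was at 2722, 2874, 697 and 3832 TPM in the No-0 libraries and 2408, 3233, 526 and 3382 TPM in those of slh1. LHCB2.2 (AT2G05070) was at 2838, 3237, 859 and 4451 TPM in the No-0 libraries and 2906, 3739, 566 and 4005 TPM in those of slh1. LHCB2.3 (AT3G27690) was at 926, 916, 186 and 1784 TPM in the No-0 libraries and 663, 833, 107 and 1230.4 TPM in those of slh1. Each of the 3 was lower in both 9 h libraries than in any of the other 6, and the 3 genes were highest in No-0 at 24 h. The fitted log2 fold change between 6 and 9 h was -2.40 ± 0.25 (adjusted p = 2.49e-15) for LHCB2.1, -2.38 ± 0.25 (adjusted p = 2.49e-15) for LHCB2.2 and -2.69 ± 0.29 (adjusted p = 4.87e-14) for LHCB2.3. Between 9 and 24 h it was 2.67 ± 0.25 (adjusted p = 2.52e-19), 2.69 ± 0.25 (adjusted p = 7.4e-20) and 3.48 ± 0.30 (adjusted p = 1.77e-22) in the same order. LHCB2.3 had the largest range of the 52 genes, with its highest library 16.7 times its lowest.

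Among the 5 LHCB1 genes, which encode the most abundant LHCII protein, 3 were called higher between 9 and 24 h and 2 were not. LHCB1.1 (AT1G29920) was at 3432, 5398, 1821 and 11409 TPM in the No-0 libraries and 3308, 5136, 1112 and 10530.4 TPM in those of slh1 at 0, 6, 9 and 24 h. LHCB1.4 (AT2G34430) was at 729.8, 1317, 652 and 4010.4 TPM in the No-0 libraries and 846, 1331, 441 and 2520.4 TPM in those of slh1. LHCB1.3 (AT1G29930), the highest LHCB gene by mean, was at 5339.8, 8144, 6008 and 13263 TPM in the No-0 libraries and 4828, 6176, 4534 and 11443 TPM in those of slh1. In both genotypes each of these 3 genes was highest at 24 h. The lowest time point was 9 h in both genotypes for LHCB1.1 and LHCB1.4, and for LHCB1.3 it was 0 h in No-0 and 9 h in slh1. LHCB1.2 (AT1G29910) was at 4464, 5125, 3464 and 4083 TPM in the No-0 libraries and 4270.4, 5091, 2204 and 3156 TPM in those of slh1, with no such rise at 24 h. LHCB1.5 (AT2G34420) was at 5446, 8652, 6847 and 6606 TPM in the No-0 libraries and 5593, 7643, 5042 and 5894 TPM in those of slh1, highest at 6 h in both genotypes. Between 9 and 24 h the fitted log2 fold change was 3.04 ± 0.24 (adjusted p = 2.62e-26) for LHCB1.1, 2.68 ± 0.27 (adjusted p = 8.29e-18) for LHCB1.4 and 1.35 ± 0.22 (adjusted p = 1.11e-07) for LHCB1.3. It was 0.47 ± 0.23 (adjusted p = 0.195) for LHCB1.2 and 0.19 ± 0.21 (adjusted p = 0.674) for LHCB1.5, which were not called. LHCB1.4 and LHCB1.5 are neighbours on chromosome 2 and LHCB1.1, LHCB1.2 and LHCB1.3 are neighbours on chromosome 1. The differences between loci were not tested as such.

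Reads can be shared between these copies, since a read that matched several genes was split equally among them. A search of the last 300 bases of each of the 52 annotated transcripts for words of 36 bases, the length of a tag, found words also present in another gene's transcript for 3 of them. These were LHCB2.2, with 25.7% of its words, LHCB1.2, with 12.1%, and LHCB1.3, with 0.755%, and the copy that shared most of the words was LHCB2.1, LHCB1.1 and LHCB1.2 respectively. The search allowed no mismatch. Of the 52 genes, 22 had whole counts in all 8 libraries and 30 had at least 1 fractional count. In the methods, reads were split between genes that match alike and also between genes whose limits overlap. A fractional count thus shows that reads were split, but not that they were shared with a copy. LHCB1.1 and LHCB1.5 had no shared word in this search, yet had a whole count in none of the 8 libraries. The search thus does not account for all split reads. Summed over the family the swing remained. The 5 LHCB1 loci together were at 19411, 28635, 18792 and 39372 TPM in the No-0 libraries and 18845, 25377, 13334 and 33544 TPM in those of slh1 at 0, 6, 9 and 24 h. The 3 LHCB2 loci together were at 6486, 7028, 1742 and 10067 TPM in the No-0 libraries and 5977, 7806, 1199.8 and 8618 TPM in those of slh1. With LHCB1.1 to LHCB1.3 as 1 feature and LHCB2.1 with LHCB2.2 as another, the log2 fold change between 6 and 9 h was -0.96 ± 0.20 (edgeR, adjusted p = 0.000975) and -2.39 ± 0.23 (edgeR, adjusted p = 5.12e-17). LHCB1.4, LHCB1.5 and LHCB2.3 stayed separate features in that fit.

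Of the other LHCB genes, LHCB3 (AT5G54270) was at 4564, 4575, 2273 and 4226 TPM in the No-0 libraries and 4197, 5366, 2286 and 3199 TPM in those of slh1, lower in both 9 h libraries than in any other. LHCB4.2 (AT3G08940), one of 3 genes for the minor antenna CP29, was at 1130.2, 2043, 924 and 2688 TPM in the No-0 libraries and 1112, 1830.2, 667 and 3195 TPM in those of slh1. LHCB4.1 (AT5G01530), the second copy, was at 4568, 4931, 4883 and 5497 TPM in the No-0 libraries and 4621, 4947, 3993 and 5175 TPM in those of slh1. LHCB4.2 was highest in both 24 h libraries and lowest in both 9 h libraries, whereas the highest library of LHCB4.1 was 1.38 times its lowest. The log2 fold change between 9 and 24 h was 2.01 ± 0.26 (adjusted p = 1.72e-11) for LHCB4.2 and 0.38 ± 0.22 (adjusted p = 0.329) for LHCB4.1, which was not called. LHCB4.3 (AT2G40100), the third copy, was the lowest of all 52 genes, at 52.4, 6.36, 49.5 and 49.7 TPM in the No-0 libraries and 49.8, 38.1, 34.8 and 9.73 TPM in those of slh1, where the lowest value of each genotype rests on 2 tags. LHCB5 (CP26) ranged between 2442 and 3865 TPM and LHCB6 (CP24) between 3239.7 and 5265 TPM. Neither was called in any of the 4 comparisons of time points.

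**Figure D2:**
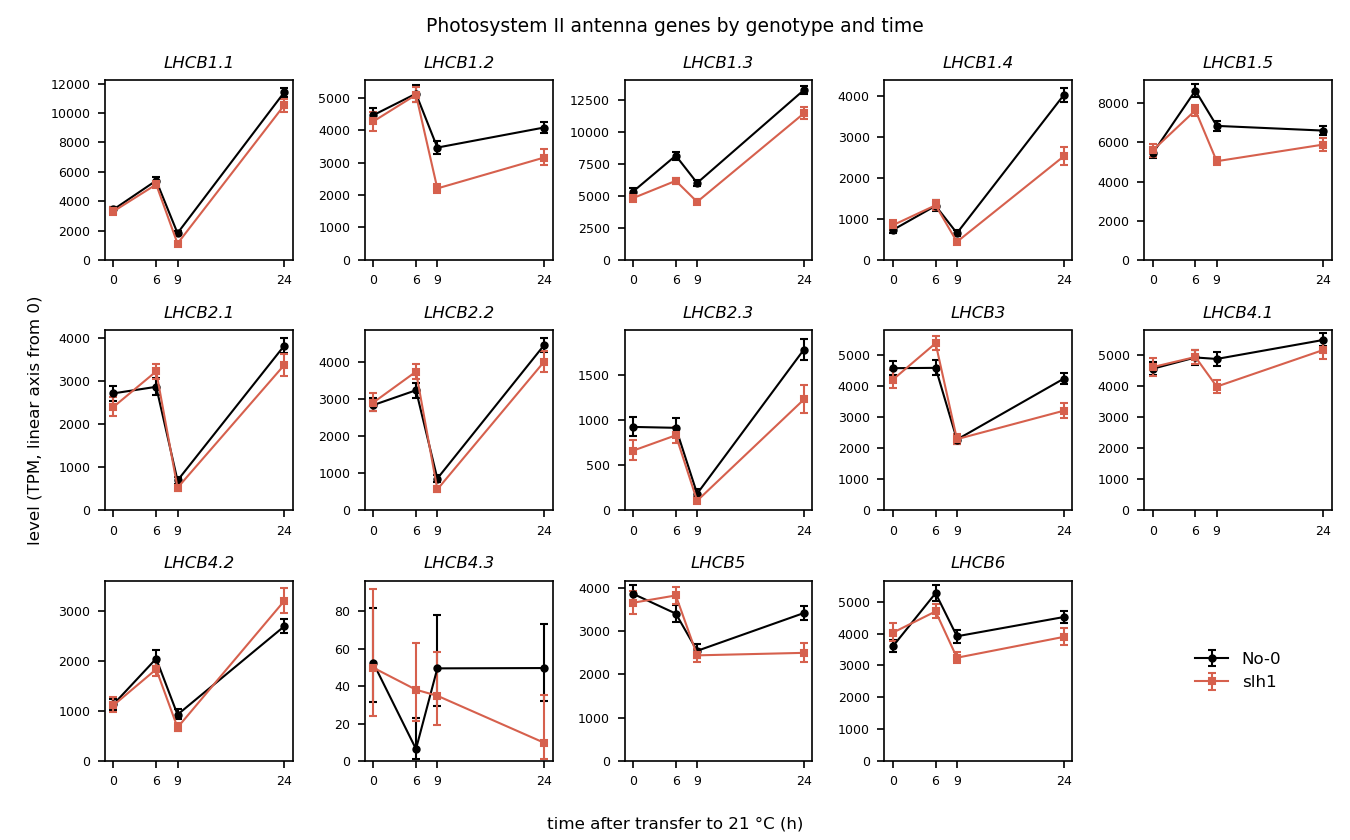
The level of each of the 14 LHCB genes (TPM, linear axes that start at 0 and differ in scale) is plotted against the time after the move to 21 °C (h), black circles for No-0 and red squares for slh1, with exact 95% Poisson intervals of the tag count. LHCB2.1, LHCB2.2 and LHCB2.3 fall at 9 h in both genotypes, to 526, 566 and 107 TPM in slh1, while LHCB4.1 stays between 3993 and 5497 TPM.

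The stretches just upstream of genes called in both directions and of copies that were not called are shown to let their sequences be compared. Each is the 120 bases before the annotated start of transcription, read from the TAIR10.1 assembly of RefSeq on the strand of the gene, 5′ to 3′, with capitals marking the motifs searched on both strands. The motifs were the G-box (CACGTG), the I-box (GATAAG), the evening element (AAATATCT) and a binding site of the clock protein CCA1 (AAAAATCT or AACAATCT). Of the 7 genes called lower between 6 and 9 h and higher between 9 and 24 h, 6 come first, followed by LHCB1.5 and LHCB4.1, which were called in neither comparison. LHCB3, also among the 7, is not shown because its stretch reaches into the neighbouring annotated gene, and it holds none of the motifs.
LHCB2.1: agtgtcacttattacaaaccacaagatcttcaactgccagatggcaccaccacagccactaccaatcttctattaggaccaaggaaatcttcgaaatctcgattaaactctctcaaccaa
LHCB2.2: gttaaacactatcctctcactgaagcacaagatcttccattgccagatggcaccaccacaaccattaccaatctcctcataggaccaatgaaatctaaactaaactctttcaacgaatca
LHCB2.3: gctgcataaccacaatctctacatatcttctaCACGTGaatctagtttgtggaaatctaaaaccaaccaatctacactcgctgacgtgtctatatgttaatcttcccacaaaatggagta
LHCB1.1: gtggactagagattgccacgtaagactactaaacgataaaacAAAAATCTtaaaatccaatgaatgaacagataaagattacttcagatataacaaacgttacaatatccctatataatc
LHCB1.4: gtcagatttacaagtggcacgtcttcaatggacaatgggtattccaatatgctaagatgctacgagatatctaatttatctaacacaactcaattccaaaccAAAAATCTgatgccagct
LHCB4.2: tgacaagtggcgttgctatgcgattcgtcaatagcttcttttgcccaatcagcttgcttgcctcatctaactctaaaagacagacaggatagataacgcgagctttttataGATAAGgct
LHCB1.5: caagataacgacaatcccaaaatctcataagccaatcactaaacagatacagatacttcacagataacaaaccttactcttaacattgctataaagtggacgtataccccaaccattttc
LHCB4.1: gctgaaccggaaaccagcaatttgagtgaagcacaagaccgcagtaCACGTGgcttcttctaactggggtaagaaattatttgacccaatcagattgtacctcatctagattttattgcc
In TAIR10.1 they lie at chr2:1824481-1824600 (reverse strand), chr2:1800473-1800592 (reverse), chr3:10255786-10255905 (forward), chr1:10475970-10476089 (reverse), chr2:14524487-14524606 (forward), chr3:2717437-2717556 (forward), chr2:14523569-14523688 (reverse) and chr5:208746-208865 (forward), each outside any annotated gene. LHCB2.1 and LHCB2.2 share a run of 20 identical bases (tgccagatggcaccaccaca), whereas LHCB4.1 and LHCB4.2 share at most 9 in a row and LHCB1.4 and LHCB1.5 at most 7. The CCA1 word AAAAATCT stands upstream of LHCB1.1 and LHCB1.4, the G-box upstream of LHCB2.3 and LHCB4.1, and the I-box upstream of LHCB4.2, so that in these stretches no motif was common to the 7 genes.

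In windows of 300 bases (250 before and 50 from the annotated start), the G-box was found at 16 of the 52 genes (30.8%) and at 7.68% of the windows of all 27443 protein-coding genes. By group these were 7 of the 11 photosystem II subunit genes, 4 of the 12 photosystem I subunit genes, 3 of the 14 LHCB genes, 1 of the 6 LHCA genes and 1 of the 9 carrier and ATP synthase genes. The I-box was found at 23 genes (44.2%, against 14.6% of all windows). The evening element was found at 3 genes (5.77%, against 5.65%) and the CCA1 site at 7 (13.5%, against 9.93%), of which 3 were the LHCB genes LHCB1.1, LHCB1.3 and LHCB1.4. The 4 motifs were counted on their own, and windows of neighbouring genes can overlap. A match is a description of letters only.

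In the photosystem I antenna, LHCA1 (AT3G54890) was the highest gene, at 6244, 7581, 4999 and 4982 TPM in the No-0 libraries and 6505, 6711, 4119.6 and 4158 TPM in those of slh1 at 0, 6, 9 and 24 h. It was highest at 6 h in both genotypes and was called in no comparison of time points. LHCA4 (AT3G47470) was at 4515, 4400.0, 2816 and 4481 TPM in the No-0 libraries and 4909.9, 5854, 2882 and 3487 TPM in those of slh1. It was the LHCA gene called between 6 and 9 h, with a log2 fold change of -0.91 ± 0.23 (adjusted p = 0.0108), and both 9 h libraries were below the other 6. LHCA2 was among the steadiest of the 52 genes, with its highest library 1.28 times its lowest. LHCA5 and LHCA6, which encode scarce antenna proteins that link photosystem I with the chloroplast NDH complex, had means of 186 and 155 TPM, far below the other 4.

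Between 0 h at 28 °C and 24 h at 21 °C, 2 time points at the same hour of the day, 15 of the 52 genes were called where 18.7% of all genes tested were. Of these, 8 were called higher (10.5% of all genes tested were) and 7 lower (8.26% of all genes tested were), and the median over the 52 genes was -0.01 against 0.03 over all genes tested. The 8 called higher were LHCB1.1, LHCB1.3, LHCB1.4, LHCB2.2, LHCB2.3, LHCB4.2, PSBR and PSAN. The 7 called lower were FNR2, ATPC1, ATPD, FNR1, PSBQ2, PSBS and PSAO. LHCB genes thus made up 6 of the 8 called higher and none of those called lower. The fitted log2 fold change was 2.07 ± 0.26 for LHCB1.4, 1.76 ± 0.23 for LHCB1.1, 1.46 ± 0.25 for LHCB4.2 and 1.34 ± 0.22 for LHCB1.3. Between 0 h and 6 h, 4 of the 52 genes were called, where 4.21% of all genes tested were. PSBR and LHCB4.2 were called higher (2.66% of all genes tested were) and FNR2 and ATPC1 lower (1.55% of all genes tested were). Without the No-0 0 h library, or without the No-0 6 h library, none of the 52 genes was called between 0 h and 6 h, and without the slh1 0 h library 2 were. Both comparisons share the 0 h libraries.

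The genes of electron transport and ATP synthase that were called between 0 h and 24 h all fell, whereas the LHCB genes called there rose. FNR2 (AT1G20020), a leaf ferredoxin-NADP reductase, was at 829.7, 251, 272 and 139 TPM in the No-0 libraries and 803, 325, 306 and 68.1 TPM in those of slh1 at 0, 6, 9 and 24 h. ATPC1 (AT4G04640), the gamma subunit of the ATP synthase, was at 1172, 525, 521 and 401 TPM in the No-0 libraries and 1495, 635, 734 and 214 TPM in those of slh1. ATPD (AT4G09650), the delta subunit, was at 929, 713, 657 and 546 TPM in the No-0 libraries and 1042, 1084, 973 and 345 TPM in those of slh1. FNR2 and ATPC1 were highest in both 0 h libraries, and all 3 genes were lowest in slh1 at 24 h. The log2 fold change between 0 h and 24 h was -2.85 ± 0.33 (adjusted p = 1.61e-13) for FNR2, -2.01 ± 0.29 (adjusted p = 2.24e-09) for ATPC1 and -1.04 ± 0.28 (adjusted p = 0.00255) for ATPD. Between 0 h and 6 h it was -1.47 ± 0.31 (adjusted p = 0.000304) for FNR2 and -1.17 ± 0.28 (adjusted p = 0.00231) for ATPC1. FNR1 (AT5G66190), the other reductase copy, was at 809, 485, 774 and 424 TPM in the No-0 libraries and 855, 719.6, 687 and 396 TPM in those of slh1, and its log2 fold change between 0 h and 24 h was -0.95 ± 0.28 (adjusted p = 0.00837). Without the slh1 24 h library 3 genes were called lower between 0 h and 24 h in place of 7. PETC (AT4G03280), the Rieske protein of the cytochrome b6f complex, was at 1472, 961, 1072 and 1124 TPM in the No-0 libraries and 1535, 947, 1068 and 973 TPM in those of slh1 and was not called in any comparison.

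PETE2 (AT1G20340), the main plastocyanin gene, had the highest level of this group, at 5797, 5844, 6123 and 4640.5 TPM in the No-0 libraries and 6819, 5886, 5536 and 4163 TPM in those of slh1. PETE1 (AT1G76100), the minor copy, was at 154, 270.4, 272 and 352 TPM in the No-0 libraries and 294, 244, 306 and 311 TPM in those of slh1 and its share of the pair's tags was 2.59, 4.42, 4.26 and 7.04% in No-0 and 4.13, 3.98, 5.24 and 6.96% in slh1. FD2 (AT1G60950), the main leaf ferredoxin, was at 2138, 1758, 1969 and 3457 TPM in the No-0 libraries and 1939, 1911, 1817 and 2227 TPM in those of slh1. It was highest in No-0 at 24 h. FD1 (AT1G10960), the minor leaf ferredoxin, was at 571, 722, 811 and 805 TPM in the No-0 libraries and 688, 642, 694 and 725 TPM in those of slh1. None of these 4 genes was called between any time points. The share of FNR2 in the tags of the reductase pair was 50.6, 34.1, 26.0 and 24.7% in No-0 and 48.4, 31.1, 30.8 and 14.7% in slh1, about equal to that of FNR1 at 0 h and the smaller share in the 6 libraries at 21 °C.

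Among the photosystem II subunits, PSBR (AT1G79040), a small subunit near the oxygen-evolving complex, had the highest mean level of all 52 genes. It was at 5725, 9812, 9728 and 10735 TPM in the No-0 libraries and 6101, 9679, 8759.5 and 13676 TPM in those of slh1 at 0, 6, 9 and 24 h. Both 0 h libraries were below the other 6, and the log2 fold change was 0.75 ± 0.21 (adjusted p = 0.0153) between 0 h and 6 h and 1.11 ± 0.21 (adjusted p = 8.95e-06) between 0 h and 24 h. PSBS (AT1G44575), the protein that triggers the release of excess light energy as heat, was at 2214, 2211, 2227 and 1375 TPM in the No-0 libraries and 2163, 2325, 2168 and 987 TPM in those of slh1. Both 24 h libraries were below the other 6, and the log2 fold change between 9 h and 24 h was -0.80 ± 0.24 (adjusted p = 0.0175). Of the genes for the extrinsic proteins of the oxygen-evolving complex, PSBO1 (AT5G66570) was at 4178, 3893, 4101 and 4670.3 TPM in the No-0 libraries and 4063, 4391, 3969 and 5325 TPM in those of slh1 and PSBO2 (AT3G50820) at 949.7, 1067, 1134 and 1331 TPM in the No-0 libraries and 889.8, 1277, 1179 and 1140.5 TPM in those of slh1. PSBQ1 (AT4G21280) was at 1348, 1642, 1686 and 1400.5 TPM in the No-0 libraries and 1540.3, 1524, 1416 and 1357 TPM in those of slh1, the steadiest of the 52 genes with its highest library 1.25 times its lowest. PSBQ2 (AT4G05180) was at 1769.8, 1304, 984 and 1069 TPM in the No-0 libraries and 1944, 1759, 1195 and 875 TPM in those of slh1, highest in both 0 h libraries, with a log2 fold change of -0.86 ± 0.25 (adjusted p = 0.00784) between 0 h and 24 h. The share of PSBQ2 in the pair was 56.8, 44.3, 36.9 and 43.3% in No-0 and 55.8, 53.6, 45.8 and 39.2% in slh1, so that it was the larger copy at 0 h and the smaller at 24 h in both genotypes.

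Among the photosystem I subunits, PSAF (AT1G31330), on the lumen side where plastocyanin docks, was the highest by mean, at 4733, 4063, 3535 and 3629 TPM in the No-0 libraries and 4965, 4485, 3097 and 2957 TPM in those of slh1 at 0, 6, 9 and 24 h. It was highest in both 0 h libraries and was not called. PSAN (AT5G64040) was at 2362, 2933, 2021 and 4207 TPM in the No-0 libraries and 2861, 3094, 1862 and 4066 TPM in those of slh1, highest in both 24 h libraries, with a log2 fold change of 1.20 ± 0.23 (adjusted p = 2.5e-05) between 9 h and 24 h. PSAO (AT1G08380), a subunit on the side where LHCII can attach, was at 4460.2, 4670.4, 3530.5 and 2584 TPM in the No-0 libraries and 4795, 4006, 2678 and 2446 TPM in those of slh1. It was lower in both 24 h libraries than in any other, with a log2 fold change of -0.82 ± 0.23 (adjusted p = 0.0042) between 0 h and 24 h.

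PSAD and PSAE, each with 2 copies, form the stromal docking site for ferredoxin. PSAD1 (AT4G02770) was at 2769, 2431, 2193 and 1875 TPM in the No-0 libraries and 2582, 2395, 2193 and 1685 TPM in those of slh1 and PSAD2 (AT1G03130) at 1259, 1142, 862 and 1102 TPM in the No-0 libraries and 1054, 1139.7, 787 and 1116 TPM in those of slh1. PSAE1 (AT4G28750) was at 3294, 4149, 3334 and 3774 TPM in the No-0 libraries and 3185, 3462, 2972 and 3531 TPM in those of slh1 and PSAE2 (AT2G20260) at 642, 787, 1045 and 879 TPM in the No-0 libraries and 765, 742, 955 and 761 TPM in those of slh1. In every library the first copy was the higher, and none of the 4 was called. For PSAH, a subunit needed for LHCII to attach to photosystem I, PSAH2 (AT1G52230) was at 2359.7, 2084, 1539.8 and 2064 TPM in the No-0 libraries and 2433, 1969.8, 1342 and 1576 TPM in those of slh1 and PSAH1 (AT3G16140) at 951, 1118, 1038 and 1017 TPM in the No-0 libraries and 835, 874, 904 and 1136 TPM in those of slh1. The share of PSAH1 in the tags of this pair was 28.7, 34.9, 40.3 and 33.0% in No-0 and 25.6, 30.7, 40.2 and 41.9% in slh1, higher at 9 h than at 0 h in both genotypes, but neither gene was called.

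**Figure D3:**
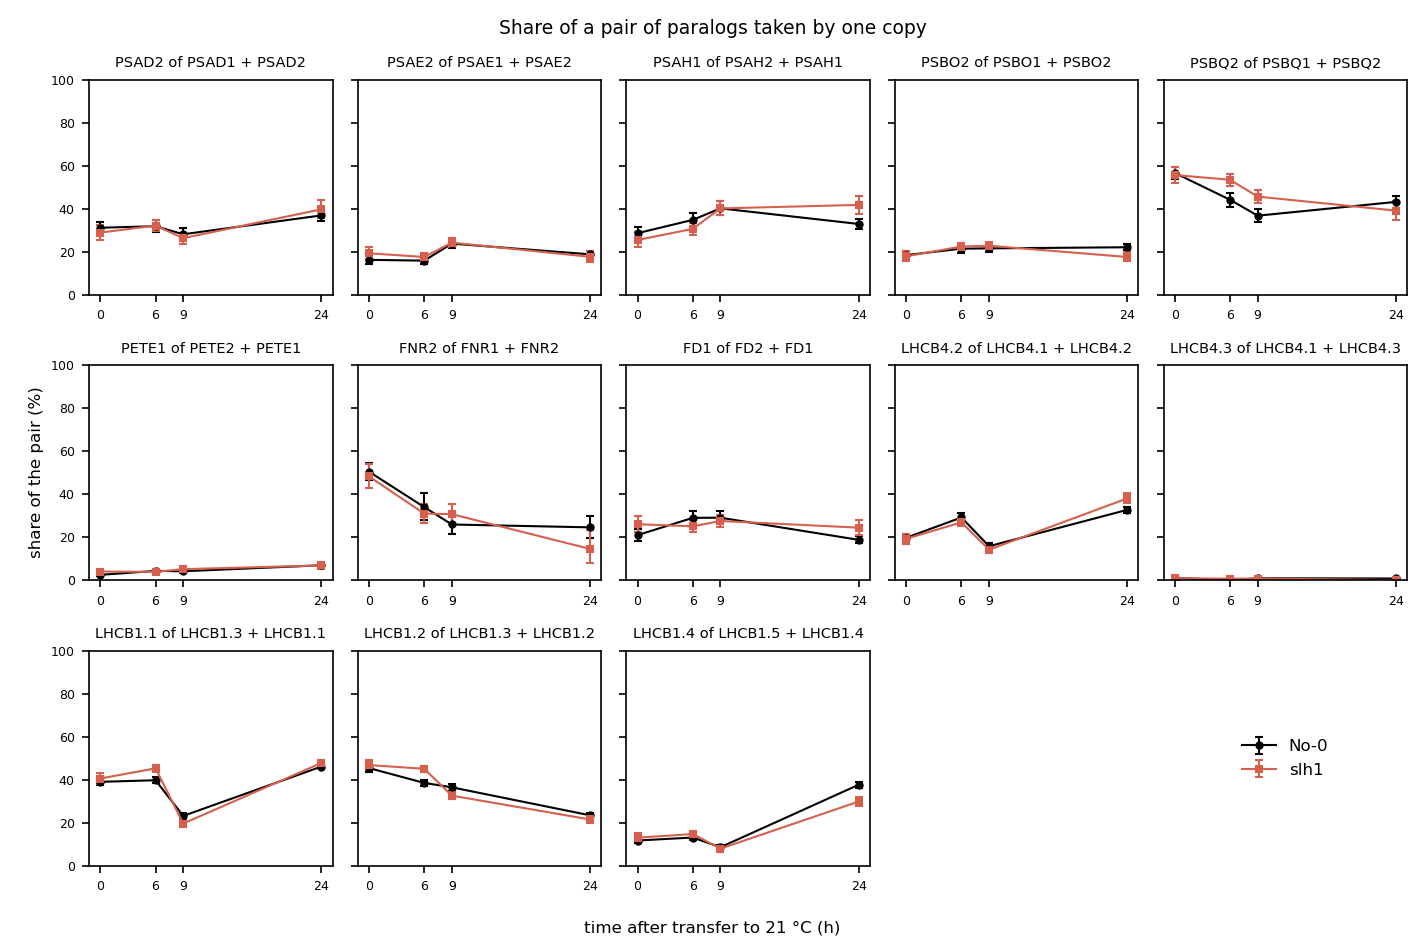
Each panel gives the share (%, axis from 0 to 100) of 1 copy in the summed TPM of 2 copies of a gene, against the time after the move to 21 °C (h), black circles for No-0 and red squares for slh1, with exact 95% binomial intervals. The share of LHCB4.2 was lowest at 9 h and highest at 24 h in both genotypes, FNR2 fell from 50.6% at 0 h in No-0 and 48.4% in slh1 to the smaller share at later times, and PSBO2 and PSAE2 stayed the smaller copy throughout.

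Of the 52 genes, 22 had a highest library at least 2 times the lowest, and 10 of these were LHCB genes. Another 5 were genes of electron carriers and ATP synthase, 3 each belonged to the photosystem I antenna and the photosystem II subunits, and 1 to the photosystem I subunits. The median of this ratio over the 52 genes was 1.81, and 12 genes stayed under 1.5. The lowest library was slh1 at 9 h for 20 genes and slh1 at 24 h for 15, whereas the highest was No-0 at 24 h for 11 genes and slh1 at 0 h for 10.

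**Figure D4:**
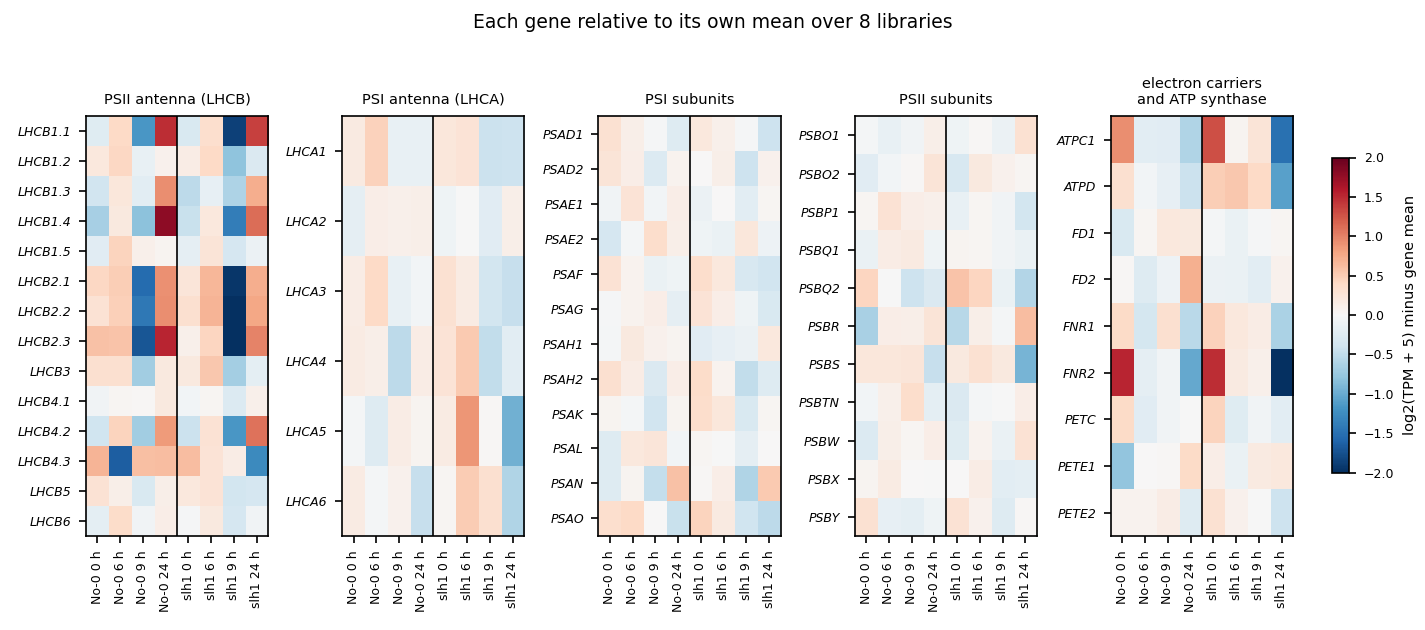
Colours give log2(TPM + 5) of each gene minus its own mean over the 8 libraries (red above, blue below, with the scale ending at 2 units either side), in columns for No-0 and slh1 at 0, 6, 9 and 24 h and in 1 panel for each functional group. The blue 9 h columns of LHCB1.1, LHCB2.1, LHCB2.2 and LHCB2.3 and the change of FNR2 from red at 0 h to blue at 24 h stand out, while most rows of the photosystem I and II subunits stay pale.

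The comparison of slh1 with No-0 asks whether these genes differed between the mutant and the wild type before and after the move to 21 °C. In the fit each time point formed its own block, and the genotype had separate terms for 28 °C and for the 3 time points at 21 °C together. These 3 time points thus served as repeats, and any change of the slh1 difference between them counted as spread. A gene not called at 21 °C is therefore not shown to be alike in slh1 and No-0. At 21 °C none of the 52 genes was called by edgeR, where 0.102% of all genes tested were. Of the 52, 17 had an unadjusted p under 0.05, and 417 of the 7824 genes tested did. The log2 fold change was negative for 50 of the 52, with a median of -0.30 (range -0.64 to 0.06), against a median of -0.05 and 53.2% negative over all genes tested. With libraries scaled to their total tags only, the median over all genes tested moved to 0.14, 40 of the 52 genes were negative, and their median was -0.11, so that the distance of the 52 genes from all genes was -0.25 in both scalings.

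By group the median at 21 °C was -0.37 over the 14 LHCB genes, -0.24 over the 6 LHCA genes, -0.30 over the 12 photosystem I subunit genes, -0.20 over the 11 photosystem II subunit genes and -0.24 over the 9 carrier and ATP synthase genes. The smallest p-value was that of LHCB1.3, at -0.52 ± 0.15 (adjusted p = 0.215). LHCB1.2 followed with -0.52 ± 0.16 (adjusted p = 0.383). The largest negative value was that of LHCB2.3, -0.64 ± 0.22 (adjusted p = 0.459), and PSBP1, an extrinsic protein of the oxygen-evolving complex, had -0.48 ± 0.16 (adjusted p = 0.448). None of these passed the threshold. With chloroplast and mitochondrial loci left out of the counts, 5 genes were called lower in slh1, LHCB1.1, LHCB1.2, LHCB1.3, LHCB1.5 and PSBP1. Without the 24 h pair of libraries 6 were, LHCB1.1, LHCB1.2, LHCB1.3, LHCB1.5, PSAL and PSAO. With limma-voom LHCB1.3 was called, and with DESeq2 none was. The shares of all genes called under these settings are not given here, so these counts cannot be set against them.

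At the 4 time points taken one by one, 1 library against 1 and with no test, 23, 27, 41 and 43 of the 52 genes were lower in slh1 than in No-0 at 0, 6, 9 and 24 h. Of the 2115 genes that averaged 20 tags or more per library, 49.2, 35.9, 45.4 and 61.6% were lower in slh1. The median of slh1 minus No-0 on the log2(TPM + 5) scale was 0.04, -0.01, -0.19 and -0.18, against 0.00, 0.19, 0.06 and -0.16 over these 2115 genes. The distance between the 2 medians was thus widest at 9 h and 6 h. At 24 h the medians lay close together, although 43 of the 52 genes were lower against 61.6% of the 2115. Over the LHCB genes alone the medians were -0.06, -0.0025, -0.45 and -0.21. At 9 h in slh1, LHCB1.1 was at 1112 TPM against 1821 TPM in No-0 and LHCB1.2 was at 2204 against 3464 TPM. Of the 52 genes, 18 were lower in slh1 at each of the 3 time points at 21 °C, and 7 were lower at all 4 time points. The matching shares over all genes are not given here.

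At 28 °C, where 1 library stood against 1 and the spread was borrowed from the pairs at 21 °C, none of the 52 genes was called by edgeR (0.0383% of all genes tested were), and none had an unadjusted p under 0.05, as 360 of all genes tested did. The median was -0.05, against -0.06 over all genes tested, with 20 genes positive and 32 negative. A further term for an extra slh1 difference at 24 h called none of the 52 genes with edgeR, where 0.256% of all genes tested were called. Here 3 genes had an unadjusted p under 0.05, as 537 of all genes tested did. They were ATPC1 at -1.18 ± 0.44 (adjusted p = 0.396), ATPD at -1.01 ± 0.42 (adjusted p = 0.538) and LHCA5 at -1.39 ± 0.58 (adjusted p = 0.551). DESeq2 called none of the 52 genes in either comparison, and limma-voom none.

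**Figure D5:**
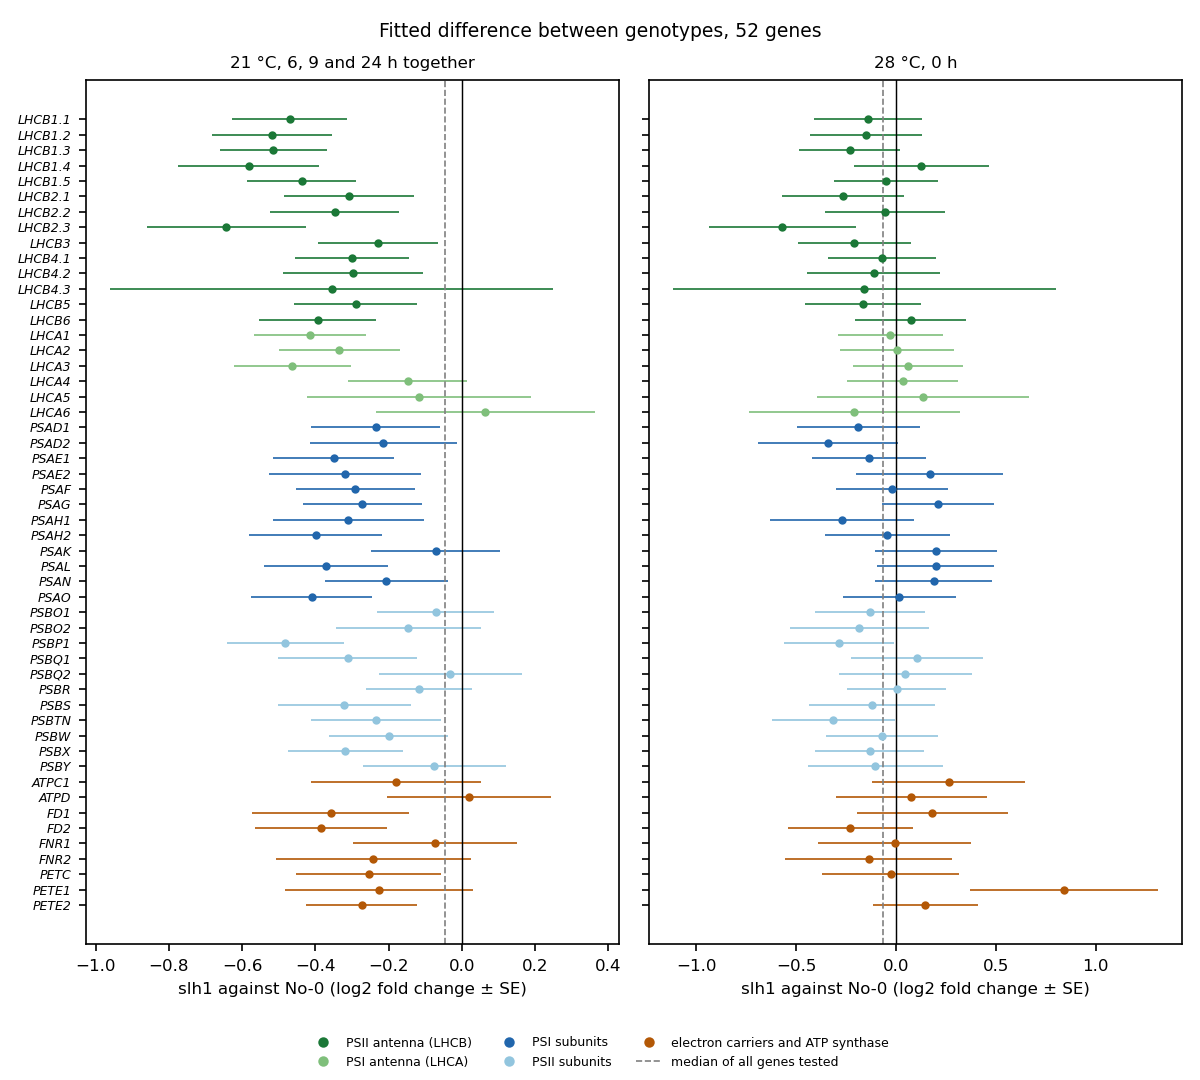
Points give the fitted log2 fold change of slh1 against No-0 with its standard error for each of the 52 genes, coloured by functional group, at 21 °C (6, 9 and 24 h together, left) and at 28 °C (0 h, right), with the zero line in black and the median of all genes tested as a grey broken line. At 21 °C 50 of 52 points lie below 0, around a median of -0.30, whereas at 28 °C the points scatter on both sides around a median of -0.05 with wider errors.

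Genes that work beside these were described from 3 further lists. Of 12 tested genes of chlorophyll synthesis, 4 were called lower between 6 and 9 h (0.626% of all genes tested were) and none was called higher. Between 9 and 24 h, 4 were called higher (5.02% of all genes tested were) and 2 lower (5.25% of all genes tested were). The 4 in each case were HEMA1, CHLH, GUN4 and CRD1. HEMA1, which encodes the first enzyme of the pathway, had a log2 fold change of -2.95 ± 0.49 (adjusted p = 6.3e-06) between 6 and 9 h and of 3.61 ± 0.48 (adjusted p = 1.29e-10) between 9 and 24 h. At 9 h HEMA1 rested on only 9 tags in No-0 and 4 tags in slh1. For CHLH, a subunit of magnesium chelatase with GUN4 as its activator, the values were -1.39 ± 0.30 (adjusted p = 0.00175) and 1.12 ± 0.31 (adjusted p = 0.0061). The 2 lower at 24 h were the protochlorophyllide reductases, PORB with -2.09 ± 0.34 (adjusted p = 2.21e-07) and PORC with -1.42 ± 0.38 (adjusted p = 0.0041). Of 12 tested relatives and regulators of the antenna, GLK2, a transcription factor of photosynthesis genes, was the 1 called lower between 6 and 9 h, with -1.75 ± 0.41 (adjusted p = 0.00439). Between 9 and 24 h GLK2, LHCB7 and PGR5 were called higher and ELIP1 lower. Between 0 h and 6 h GLK2 and the light-stress protein gene ELIP1 were called higher (2.66% of all genes tested were). At 0 h ELIP1 had only 5 tags in No-0 and 0 in slh1, and GLK2 had 5 tags in slh1. Of 9 tested minor subunit and assembly genes, none was called between 6 and 9 h, and PSB28 was called lower between 9 and 24 h. Between 0 h and 24 h, PORB, PORC, CHLH, CHLI1, DVR, PGRL1A and PPL1 were called lower (8.26% of all genes tested were). OHP2, GLK2 and PETM were called higher there (10.5% of all genes tested were). None of the genes in the 3 lists was called between slh1 and No-0 at 21 °C or 28 °C by edgeR.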

How the data were processed

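Leaf RNA of 8 samples was profiled by EXPRSS Tag-seq, which reads 1 strand-specific tag near the 3′ end of each polyadenylated transcript. The authors deposited expected counts of tags for each locus, without scaling for depth, and split reads that matched several genes equally, so deposited counts can be fractional. The reads were truncated to 36 bases. The submitters' processing notes name Bowtie 0.12.8, Novoalign 2.08.03 and R 2.15.3 and the build TAIR10, and the methods name BWA for paired reads, so the aligner is not certain. Locus names that carry a prefix were taken to hold antisense tags, which the files do not state. Libraries held 227021 to 573997 tags on both strands. No molecular identifiers were used, and intervals cover counting error only. A sample of reads assigned to no barcode was not used.

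Samples were grouped by genotype and time in their titles. Sense tags were scaled to TPM for the description of levels only. For the tests, the unscaled counts of sense tags were rounded and fitted with edgeR 4.0.16 (TMM, filterByExpr, 7824 genes, threshold 0.05) in R 4.3.3. DESeq2 1.42.0, limma-voom 3.58.1, other scalings and filters, summed copies and leaving out libraries were tried. The fits leave 2 (genotype) or 3 (time) residual degrees of freedom and were tested on simulated data. Sequences, positions and symbols come from RefSeq's TAIR10.1, which matched 98.5% of sense loci and all 52 genes, while the files hold no positions. The genes and lists were chosen with earlier results of these data known. Genes named with values in every library are the highest of each group, both copies of paralogs, and those called in a comparison, up to 5 in each direction by fold change, and further LHCB genes, LHCA4 and PETC were named after their values were seen.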

Additional observations from a re-analysis of the deposited data

Results flagged for a closer look

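Antisense tags, which the comparisons above do not use, made up between 10.1% and 12.3% of all tags of a library. For most of the 52 genes the antisense share over the 8 libraries was lower (median 3.04%), but for 4 it was above the share of any library as a whole, at 18.5% for FNR2, 14.9% for FNR1, 12.5% for ATPD and 12.4% for PSAH2. At PSAH2 the antisense share was 22.8, 10.0, 9.31 and 4.85% in No-0 and 22.9, 12.5, 3.41 and 8.22% in slh1 at 0, 6, 9 and 24 h, highest at 0 h in both genotypes. At FNR2 it was 19.1, 10.2, 7.48 and 5.41% in No-0 and 28.8, 16.3, 23.1 and 12.5% in slh1, with only 2 antisense tags in slh1 at 24 h. No test of these shares was made, and the reading of the prefixed rows as antisense rests on the files' naming.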

How the results depend on the processing

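With 1 library per group the fits use the genotypes as repeats of a time point, or the time points as repeats of a genotype, and depth limits genes with few tags such as LHCB4.3. The time point was a block in the comparisons of slh1 with No-0, and the genotype was a block in those of time points. No paired analysis was possible because each group holds 1 library, so there are no replicate numbers to pair beyond these blocks. Leaving out libraries gave 5 to 10 of the 52 genes called between 6 and 9 h, 8 to 13 between 9 and 24 h, 10 to 16 between 0 and 24 h and 0 to 6 between 0 and 6 h. It gave 0 to 6 between slh1 and No-0 at 21 °C, 0 at 28 °C, and 0 to 1 for the extra difference at 24 h (PSBTN, without the 0 h pair). Of the other alternatives, the count between slh1 and No-0 at 21 °C moved from 0 to 5 with nuclear tags only and to 1 with limma-voom. Between 0 and 6 h it moved from 4 to 2 with RLE size factors, to 2 with DESeq2 and to 8 with limma-voom, and between 6 and 9 h from 9 to 14 with limma-voom. The causes were not tested, and the shares of all genes called under the alternatives are not given here. Of 98 alternative counts of called genes, 86 were within 1.5 times the first value. None of the log2 fold changes followed through the alternatives changed sign (60 values of a gene in a comparison, no marker gene among them). With libraries left out, their call was unchanged in 378 cases, lost in 60 and gained in 3. Under the other alternatives it was unchanged in 437 cases, lost in 22 and gained in 6. All 36 alternative medians between pairs of libraries (pseudocounts of 1 and 20 TPM, and at least 20 tags) moved by less than 0.1. The summed share depends on the total by construction. Of sense and antisense tags together, the 52 genes took 12.4, 14.3, 11.5 and 14.6% in No-0 and 12.8, 14.0, 10.1 and 13.4% in slh1 at 0, 6, 9 and 24 h. Of nuclear sense tags they took 18.2, 20.8, 15.6 and 19.3% and 18.2, 18.6, 13.4 and 18.6%, with 9 h the lowest in both genotypes under each total.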
